A study of Rattus norvegicus with 16 samples.

Results

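Heat shock proteins and molecular chaperones were examined in the diaphragm of rats under mechanical ventilation (MV). The members were all array features, called transcript clusters, whose gene symbol starts with Hspa, Hspb, Hspd, Hspe, Hsph, Hsp90, Dnaja, Dnajb, Dnajc, Bag plus a digit or Cct plus a digit, together with Cryab and Hsf1, with the brightest cluster kept for each symbol. This gave 82 genes out of 15037 symbols on the array: 24 Dnajc, 12 Dnajb and 3 Dnaja genes, 12 of the Hsp70 and Hsp110 families, 9 Cct, 8 small heat shock proteins with Cryab, 6 Bag, 3 Hsp90, the Hsp60 and Hsp10 pair, Hsf1, and 2 further genes taken by their prefix (Hspbp1 and Hspbap1). Members were taken by symbol and not by measured level, although the choice was made with earlier results of these data known. Hspa1b and Dnajb1, which belong here by name, are not paired with a cluster in the probe table used here.

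Minced diaphragm muscle came from male Wistar rats, 14 to 16 weeks old, with 4 rats per group, and the RNA of each rat was hybridised to its own Clariom S array. In the E-V12 group the diaphragm was stimulated electrically (ES) through implanted electrodes for the 12 h of MV, in the S-V12 group the abdomen was opened and electrodes were implanted without ES during 12 h of MV, in the V12 group rats received a tracheostomy and 12 h of MV, and in the CON group the muscle was taken right after anaesthesia. Anaesthesia was induced with isoflurane and kept up with urethane. E-V12 and S-V12 rats also received supplemental oxygen, and the body temperature of the ventilated rats was held with a heating pad. V12/CON thus holds MV, tracheostomy, the long anaesthesia and the elapsed time together, and S-V12/V12 the operation, the electrodes and the oxygen; these cannot be told apart. The methods say that tissue around the electrodes was removed for the specimen, without saying whether it was discarded or measured.

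Chaperones bind proteins that are not yet folded or have lost their fold. Hsp70 proteins do so in cycles driven by ATP, in which J proteins (the Dnaja, Dnajb and Dnajc families) bring clients and nucleotide exchange factors (Hsp110 and Bag proteins) release them, while Hsp90 finishes the folding of kinases and steroid receptors. Chaperonins (Hsp60 in mitochondria, Cct in the cytosol) enclose a client in a chamber, and small heat shock proteins hold clients without ATP. In striated muscle the small heat shock proteins sit on the sarcomere, where mechanical load damages proteins. The heat shock response is switched on by the transcription factor Hsf1, and the unfolded protein response raises the chaperones of the endoplasmic reticulum (ER).

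Values are normalized log2 array signals, and changes are log2 differences between group means, given ± their standard error (SE) from limma fitted to all 4 groups (n = 4 arrays per group). A member was called at an adjusted p under 0.05, adjusted over all 23188 clusters. Whether the arrays of a pair of groups overlapped is given as a description, without its share over all clusters. It is not further evidence for a call. Signals of different clusters are not comparable with each other. The array median lay between 5.57 and 5.73 and replicates within a group correlated at r = 0.978 to 0.990 over all clusters. The highest background row reached 6.39 to 6.75 on 15 arrays and 7.20 on CON replicate 3; 64 of the 82 members had a mean signal above it. In bulk muscle, fewer cells of a type and less RNA per cell cannot be told apart.

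The tissue label was checked against marker lists. All 10 measured markers of skeletal muscle fibres were above background on at least 1 array, and 0 of them were called in V12/CON. Their summed log2 level was 22.9 on all V12 arrays and 22.7 to 23.0 on CON arrays. The highest cluster of an array read 19.7 to 19.9, so most of these 10 markers lay near the top of the scale. A flat sum there cannot show that fibre content was stable. Markers of macrophages and monocytes moved with the groups: their summed log2 level was 13.0 to 14.8 in E-V12, 13.9 to 14.5 in S-V12, 11.4 to 12.7 in V12 and 9.99 to 11.9 in CON. V12/CON had 4 of these 8 markers higher and 1 lower. The 1 lower was Adgre1, a defining gene of the list, which was at or below background on all 16 arrays. S-V12/V12 had 3 higher and 0 lower. The part of these cells in the changes of the members below was not tested. In V12/CON the other lists had 1 of 7 endothelial markers higher and 1 lower, 2 of 6 smooth muscle and pericyte markers lower, and none of 4 neutrophil, 5 fibroblast, 3 red blood cell, 3 adipocyte and 3 mesothelial markers called. In S-V12/V12 the muscle fibre gene Tnnt1 fell by 0.62 (adjusted p = 0.0307), the fibroblast gene Pdgfra was higher by 1.77 (adjusted p = 0.00162), and no other marker outside the macrophage and monocyte list was called. In E-V12/S-V12 the marker lists had 1 call, the endothelial gene Pecam1, which was lower.

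Most members were not called. In V12/CON 12 of the 82 members were higher and 9 lower, against 7.68% of all clusters higher and 8.67% lower. In S-V12/V12 13 were higher and 10 lower, against 8.05% and 6.66% of all clusters, and in E-V12/S-V12 3 were higher and 2 lower, against 1.19% and 1.51%. Of the 23188 clusters 9143 were brighter than background, a smaller share than that of the members. V12/CON had 14.97% of these 9143 clusters higher and 16.9% lower, beside 12 and 9 of the 64 bright members. S-V12/V12 had 17.7% higher and 12.5% lower, beside 13 and 7 bright members. The share of members called was thus close to that of other clusters of such brightness. All 82 members had a median change of 0.05 in V12/CON, beside 0.03 over all clusters, and of 0.01 in S-V12/V12, beside -0.05. With each array centred on its median, S-V12/V12 had 2245 clusters higher and 1206 lower, against 1866 and 1544 as deposited, and 6 in place of 10 members were lower. The plot by family shows the changes behind these counts, and differences between families were not tested. The V12 arrays enter V12/CON and S-V12/V12 with opposite sign, and the S-V12 arrays enter S-V12/V12 and E-V12/S-V12 likewise; the values of each are given side by side.

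**Figure D1:**
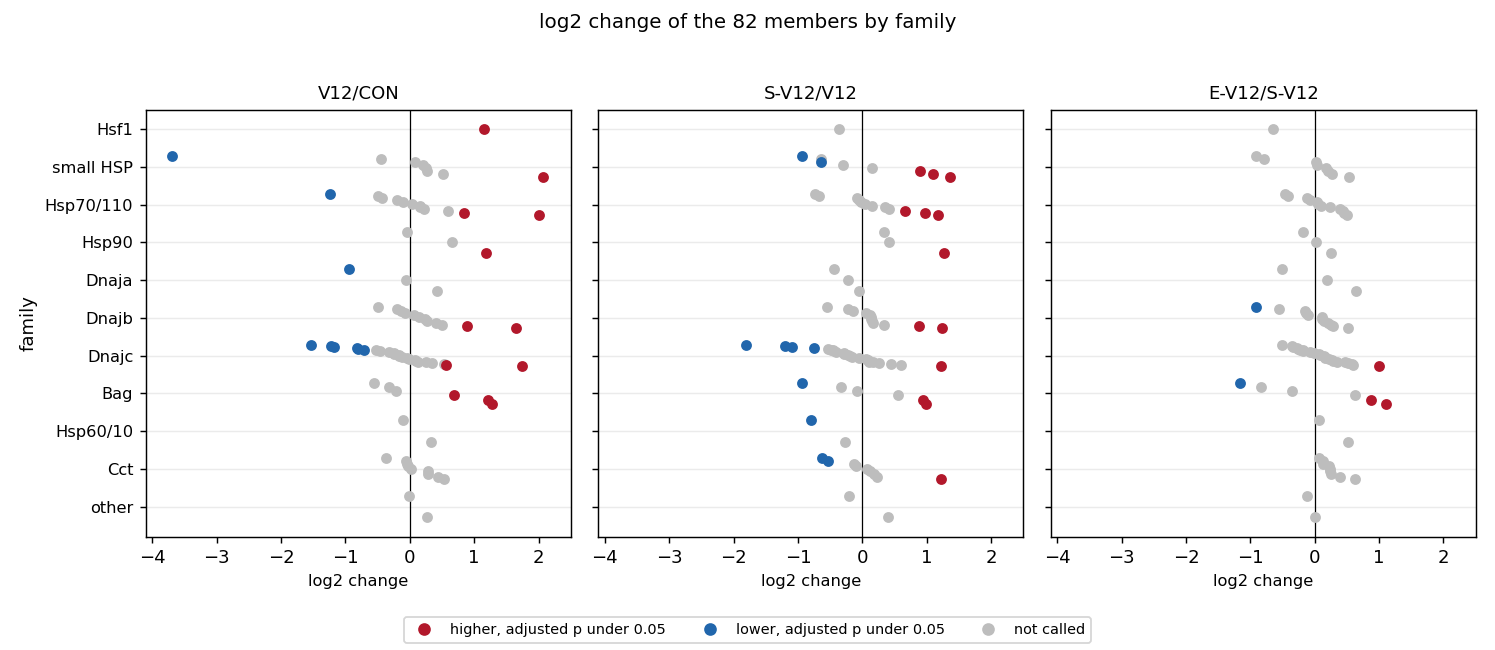
Each point is 1 of the 82 members, placed by its log2 change (horizontal axis) within its family (vertical axis) in V12/CON, S-V12/V12 and E-V12/S-V12; red and blue points passed an adjusted p under 0.05. In V12/CON Hspb3 lies alone at -3.70 and Hspb1 and Hspa5 lie at 2.07 and 2.01, while the 9 Cct genes stay between -0.36 and 0.52.

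Hspa5 and Dnajb9, both chaperones of the ER, rose in V12/CON and again in S-V12/V12. Hspa5 encodes BiP, the Hsp70 of the ER lumen. Signals of Hspa5 by array were 17.82, 17.45, 17.44 and 17.995 in E-V12, 17.73, 17.78, 17.97 and 17.71 in S-V12, 16.51, 16.73, 16.49 and 16.78 in V12 and 14.19, 14.90, 14.51 and 14.87 in CON. The 3 levels did not overlap: every V12 array was above every CON array, and every S-V12 and E-V12 array above every V12 array. The change was 2.01 ± 0.20 in V12/CON (4.03-fold, adjusted p = 1.18e-07), 1.17 ± 0.20 in S-V12/V12 (2.25-fold, adjusted p = 0.000268) and -0.12 ± 0.20 in E-V12/S-V12, which was not called (adjusted p = 0.823).

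Dnajb9 (ERdj4), a J protein that helps hand misfolded ER proteins to degradation, followed the same order. Dnajb9 read 13.79, 13.48, 13.02 and 13.45 in the E-V12 arrays, 13.10, 13.32, 13.44 and 13.06 in S-V12, 12.50, 12.24, 12.01 and 12.61 in V12 and 10.88, 10.70, 10.43 and 10.77 in CON. It rose by 1.64 ± 0.20 in V12/CON (adjusted p = 2.59e-06) and by 0.89 ± 0.20 in S-V12/V12 (adjusted p = 0.00347), with no overlap of the groups in either. Dnajc3 (p58IPK), a J protein of the ER lumen that also inhibits the stress kinase PERK, rose in V12/CON. Dnajc3 gave 10.51, 10.29, 10.58 and 10.64 on the E-V12 arrays, 10.05, 9.76, 10.30 and 10.01 on the S-V12 arrays, 10.35, 10.52, 9.97 and 10.42 on the V12 arrays and 7.96, 9.18, 8.55 and 8.60 on the CON arrays. Its change was 1.74 ± 0.22 in V12/CON (adjusted p = 5.23e-06), and -0.28 ± 0.22 in S-V12/V12 was not called (adjusted p = 0.454).

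Hsp90b1 (Grp94), the Hsp90 of the ER, was called in S-V12/V12 and not in V12/CON. For Hsp90b1, signals were 14.85, 14.23, 14.63 and 15.67 in E-V12, 14.63, 14.54, 14.84 and 14.36 in S-V12, 13.89, 13.17, 12.70 and 13.50 in V12 and 12.44, 12.76, 12.54 and 12.91 in CON. The V12 and CON arrays overlapped, and 0.65 ± 0.27 in V12/CON was not called (adjusted p = 0.107), while it rose by 1.28 ± 0.27 in S-V12/V12 (adjusted p = 0.00210). Hspa13, a small relative of Hsp70 attached to microsomes, likewise gave -0.11 ± 0.20 in V12/CON (not called, adjusted p = 0.792) and rose by 0.66 ± 0.20 in S-V12/V12 (adjusted p = 0.0278); this call was lost when any of V12 replicates 2 and 3 or S-V12 replicates 2, 3 and 4 was left out, at 0.52 to 0.68. Dnajb11 (ERdj3), a soluble partner of BiP, rose by 0.88 ± 0.24 in V12/CON (adjusted p = 0.0118). Signals of Dnajb11 were 9.51, 9.14, 9.54 and 9.58 in the E-V12 arrays, 9.32, 9.18, 9.75 and 9.05 in the S-V12 arrays, 9.69, 9.94, 8.93 and 9.30 in the V12 arrays and 8.15, 8.39, 9.08 and 8.72 in the CON arrays. The V12 and CON arrays overlapped. Without V12 replicate 2 that change was 0.73 and the call was lost (adjusted p = 0.0573). Dnajc10 (ERdj5), a J protein of the ER lumen with thioredoxin domains, changed by -0.53 ± 0.21 in V12/CON and was not called (adjusted p = 0.0914), although the V12 and CON arrays did not overlap. Dnajc18, a J protein of the ER membrane that is described with its family, was lower, with a change of -1.17 ± 0.20 (adjusted p = 0.000174).

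**Figure D2:**
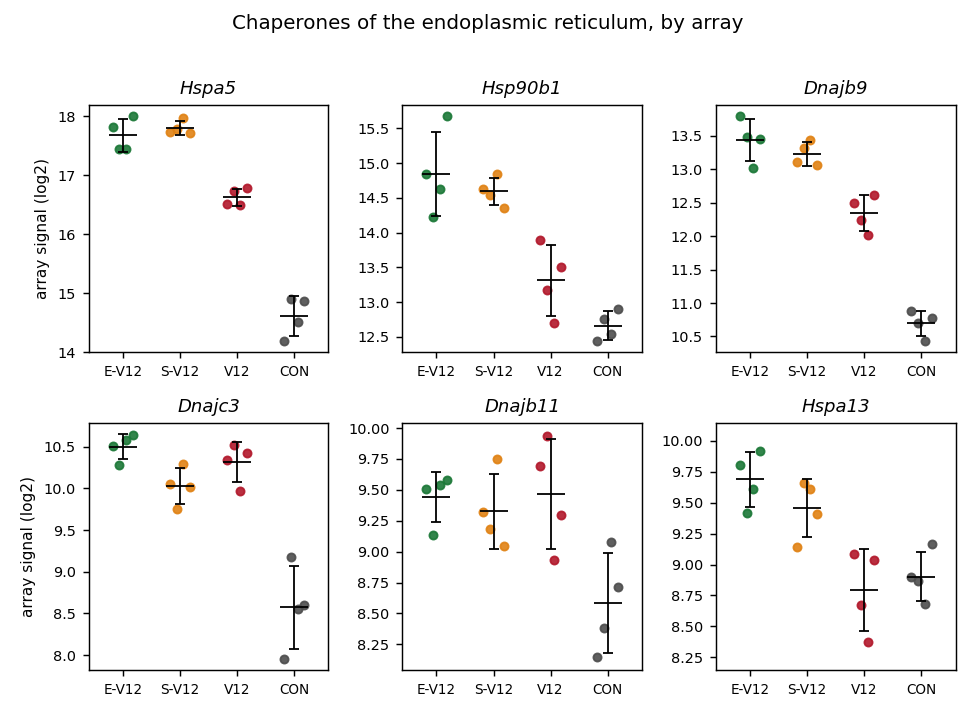
Normalized log2 array signal (vertical axis) of 6 ER chaperones in the E-V12, S-V12, V12 and CON groups (horizontal axis); each point is 1 array and the bars are the mean and SD of 4 arrays. Hspa5 and Dnajb9 separate into 3 levels, Dnajc3 and Dnajb11 differ mainly from CON, and Hsp90b1 and Hspa13 are higher in E-V12 and S-V12 than in V12 and CON.

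The promoters of these genes were read for the ER stress response element, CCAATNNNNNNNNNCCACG on either strand, the site through which ATF6 and NF-Y raise ER chaperones. RefSeq promoter windows on GRCr8 were matched for 67 of the 82 members, and the 250 bases before the annotated start were searched. The element was present in 22 of 33469 windows of all genes (0.0657%). Among the members it was present in 3, Hspa5, Hsp90b1 and Dnajc3, and in none of the windows of the other 64, Dnajb9, Dnajb11 and Hspa13 included. The motif was chosen after the values of these genes were seen. The stretches that hold it are shown because these 3 genes differ in where they were called. Hspa5 was called in both V12/CON and S-V12/V12, Dnajc3 in the first of these alone and Hsp90b1 in the second alone. Differences between these genes were not tested. All 3 were higher in S-V12/CON (Hspa5 3.18 ± 0.20, Hsp90b1 1.93 ± 0.27, Dnajc3 1.46 ± 0.22). Capitals mark the element, and Hsp90b1 holds one on each strand. The stretches are chr3:38452948-38453015 on the plus strand for Hspa5, chr15:102432509-102432577 on the plus strand for Dnajc3 and chr7:23012322-23012494 on the minus strand for Hsp90b1, and begin 68, 158 and 201 bases before the start.
Hspa5: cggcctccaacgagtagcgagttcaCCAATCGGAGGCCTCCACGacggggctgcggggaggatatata
Dnajc3: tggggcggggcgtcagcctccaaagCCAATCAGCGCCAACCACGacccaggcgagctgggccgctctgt
Hsp90b1: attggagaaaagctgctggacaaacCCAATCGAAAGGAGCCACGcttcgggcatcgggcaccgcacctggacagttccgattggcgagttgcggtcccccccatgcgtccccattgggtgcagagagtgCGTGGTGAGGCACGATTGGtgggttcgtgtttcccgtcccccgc

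Of the ER folding genes that carry other names, 10 of 11 listed were measured. Calr and Pdia3, a lectin chaperone and its disulphide isomerase partner, were higher in V12/CON by 1.11 ± 0.22 (adjusted p = 0.000823) and 1.39 ± 0.27 (adjusted p = 0.000845), and 0 were lower. In S-V12/V12 Hyou1, the large Hsp70 relative that serves BiP as exchange factor, and Canx, the membrane-bound lectin chaperone, were higher by 1.06 ± 0.21 (adjusted p = 0.00136) and 0.91 ± 0.19 (adjusted p = 0.00214), and 0 were lower. Beside the 2 of 10 called higher in each comparison, 14.97% and 17.7% of bright clusters were called higher. Serpinh1 and Sil1 went the other way in V12/CON, at -0.98 ± 0.38 and -0.19 ± 0.22. Neither was called (adjusted p = 0.0865 and 0.652). S-V12/CON had 6 of the 10 higher and E-V12/CON 7, where 24.5% and 21.2% of bright clusters were called higher. Sil1 was the 1 lower in both, at -0.75 ± 0.22 and -0.71 ± 0.22 (adjusted p = 0.0131 and 0.0205). The 10 genes had a median change of 0.44 in V12/CON, beside 0.03 over all clusters, and of 0.37 in S-V12/V12, beside -0.05. Of the 10, Calr, Canx and Creld2 had the ER stress response element in their window. Creld2 changed by 0.41 ± 0.26 in V12/CON and by 0.39 ± 0.26 in S-V12/V12 and was called in neither (adjusted p = 0.344 and 0.368).

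Hsf1, the factor that opens the heat shock response, rose in V12/CON. Signals of Hsf1 by array were 10.16, 10.54, 10.46 and 10.04 in E-V12, 11.29, 11.01, 10.67 and 10.81 in S-V12, 11.54, 11.25, 11.37 and 11.05 in V12 and 10.31, 9.73, 9.92 and 10.65 in CON. The V12 and CON arrays did not overlap, and the change was 1.15 ± 0.22 in V12/CON (adjusted p = 0.000514). It was -0.35 ± 0.22 in S-V12/V12 and -0.65 ± 0.22 in E-V12/S-V12, neither called (adjusted p = 0.311 and 0.108). Against CON, Hsf1 was higher by 0.79 ± 0.22 in S-V12 (adjusted p = 0.00798). In E-V12/CON it gave 0.15 ± 0.22 and was not called (adjusted p = 0.698). Hsf1 is regulated mainly through its protein, and the arrays measure RNA only. Hsf2, its relative outside the members, was higher in V12/CON by 1.01 ± 0.21 (adjusted p = 0.00171), and Hsbp1, which binds and restrains Hsf1, fell by 0.68 ± 0.18 in S-V12/V12 (adjusted p = 0.0111).

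Heat shock elements, the binding sites of Hsf1, were searched in the same windows as 2 facing units, GAANNTTC or TTCNNGAA, each of which reads the same on both strands. They were present in 17 of the 67 members matched, 25.4%, against 13.5% of all 33469 windows. Of these 17, Hspb1, Bag3 and Hspa8 rose and Dnajc18 and Dnajc27 fell in V12/CON, and 12 were not called. Of the 50 members matched without the element, 7 rose, 7 fell and 36 were not called. V12/CON had 7.68% of all clusters higher and 8.67% lower, and 14.97% and 16.9% of the bright clusters. Among the 17, Cct8l2, Dnajc5g and Hspa2 were above background on no array. Differences between members with and without the element were not tested. A run of 3 alternating units was present in 4 members (Hspa8, Hsph1 and the Hspd1 and Hspe1 pair) and in 0.663% of all windows. Of these 4 genes, Hspa8 rose in V12/CON, and Hsph1, Hspd1 and Hspe1 were not called. The windows of Hspd1 and Hspe1 lie head to head and share 211 bases, so that 1 run of units is counted for both. Cryab, Hsp90aa1 and Hsf1 had no window in the table.

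Stretches are shown for the 3 genes with a heat shock element that rose in V12/CON and for 2 with 3 or more units that were not called there. Capitals mark the facing units, which overlap where 3 or more alternate. They are chr12:26432378-26432455 on the minus strand for Hspb1, chr1:192533303-192533360 on the plus strand for Bag3, chr8:50080434-50080496 on the plus strand for Hspa8, chr12:10427307-10427367 on the plus strand for Hsph1 and chr9:64084237-64084304 on the plus strand for Hspe1. They end 77, 100, 18, 1 and 23 bases before the start, in that order.
Hspb1: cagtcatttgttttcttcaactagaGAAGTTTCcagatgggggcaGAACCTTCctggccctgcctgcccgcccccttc
Bag3: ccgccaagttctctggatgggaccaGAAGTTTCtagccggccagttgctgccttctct
Hspa8: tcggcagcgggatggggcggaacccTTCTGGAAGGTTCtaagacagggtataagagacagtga
Hsph1: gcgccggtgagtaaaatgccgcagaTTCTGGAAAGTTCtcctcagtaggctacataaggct
Hspe1: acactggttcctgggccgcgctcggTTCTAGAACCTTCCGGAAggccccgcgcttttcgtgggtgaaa

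**Figure D3:**
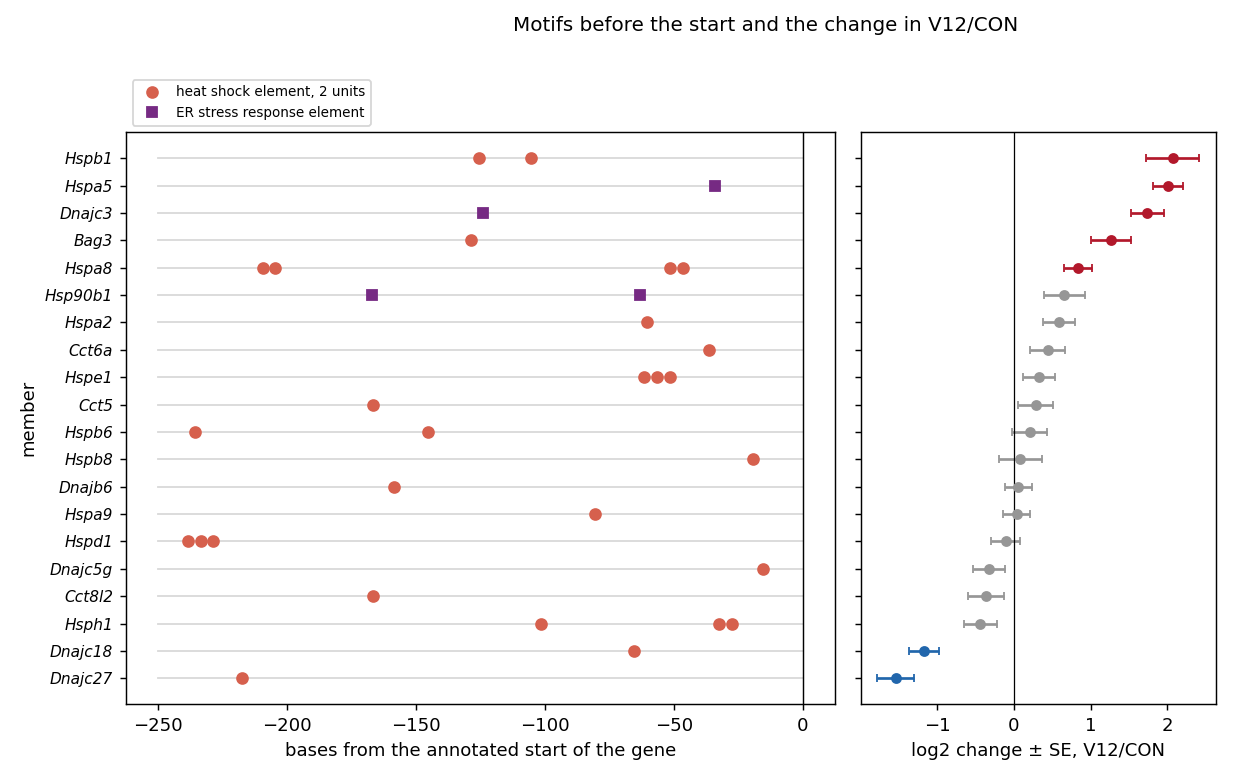
Left, positions of heat shock elements (circles) and ER stress response elements (squares) in the 250 bases before the annotated start (horizontal axis, bases) of the 20 members that hold either; right, log2 change with SE in V12/CON, red where higher, blue where lower and grey where not called. Hspa8, Hsph1 and Hspe1 carry overlapping elements close to the start and changed by 0.84, -0.44 and 0.33, of which the first was called.

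The small heat shock proteins held both the highest and the lowest change of all 82 members in V12/CON. Hspb1 (Hsp27) protects actin filaments and the sarcomere. Hspb1 read 17.11, 16.82, 17.50 and 16.98 in the E-V12 arrays, 17.27, 17.14, 17.06 and 16.78 in S-V12, 14.12, 16.14, 16.28 and 16.26 in V12 and 13.83, 13.29, 13.25 and 14.15 in CON. Of the V12 arrays 3 lay at 16.14 to 16.28, while V12 replicate 1 lay at 14.12, within the CON range. The change was 2.07 ± 0.35 in V12/CON (4.2-fold, adjusted p = 0.000162) and 1.36 ± 0.35 in S-V12/V12 (adjusted p = 0.00937). Without V12 replicate 1 these changes were 2.60 and 0.84, and both calls held. Against CON, the E-V12 arrays were higher by 3.48 ± 0.35 and the S-V12 arrays by 3.43 ± 0.35.

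Hspb3, a small heat shock protein of muscle that forms a complex with Hspb2, fell furthest. Hspb3 gave 6.48, 6.32, 5.98 and 6.03 on the E-V12 arrays, 5.90, 6.01, 5.91 and 5.90 on the S-V12 arrays, 7.27, 6.58, 5.98 and 6.48 on the V12 arrays and 10.12, 10.10, 10.46 and 10.42 on the CON arrays. No ventilated array came near the CON arrays. In V12/CON the change was -3.70 ± 0.22 (adjusted p = 4.3e-11), the smallest adjusted p of the 82 members in that comparison. The highest background row was passed on 1 E-V12, 2 V12 and 4 CON arrays, so that no fold is given for V12/CON. All 4 S-V12 arrays were at or below the highest background row, so that S-V12 was at least 13.9-fold lower than CON. Its partner Hspb2 read 9.36, 9.14, 9.01 and 8.41 in E-V12, 8.36, 8.04, 9.001 and 8.38 in S-V12, 9.195, 9.55, 8.88 and 9.92 in V12, and 9.24, 10.24, 10.13 and 9.73 in CON. It gave -0.45 ± 0.27 in V12/CON, not called (adjusted p = 0.314), and fell by 0.94 ± 0.27 in S-V12/V12 (adjusted p = 0.0200). This last call was lost without V12 replicate 2 or 4 or S-V12 replicate 1 or 2, at -0.92 to -0.77. In S-V12/CON Hspb2 changed by -1.39 ± 0.27 (adjusted p = 0.000416).

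Cryab (alpha B-crystallin), which holds desmin and titin at the Z-disc, was not called in V12/CON. For Cryab, signals were 18.58, 18.52, 18.77 and 18.60 in E-V12, 18.48, 18.27, 18.58 and 18.30 in S-V12, 18.44, 18.92, 18.50 and 18.96 in V12 and 18.39, 18.40, 17.64 and 18.35 in CON. CON replicate 3 lay below the other CON arrays, no V12 array overlapped a CON array, and the change was 0.51 ± 0.20 (adjusted p = 0.0886). Hspb6 (Hsp20) likewise was not called in V12/CON, at 0.21 ± 0.23 (adjusted p = 0.631). Hspb7, which binds filamin C in heart and skeletal muscle, rose in S-V12/V12 by 1.09 ± 0.25 (adjusted p = 0.00457). Signals of Hspb7 were 16.56, 16.82, 16.29 and 16.42 in the E-V12 arrays, 17.29, 17.51, 17.76 and 17.17 in the S-V12 arrays, 16.73, 15.96, 16.59 and 16.08 in the V12 arrays and 16.83, 15.78, 15.49 and 16.17 in the CON arrays. The S-V12 arrays lay above all others, and -0.91 ± 0.25 in E-V12/S-V12 was not called although these arrays did not overlap (adjusted p = 0.0533). Hspb8, the partner of Bag3 in clearing damaged sarcomere proteins, rose by 0.90 ± 0.28 in S-V12/V12 with overlapping arrays (adjusted p = 0.0323), and this call was lost without any of V12 replicates 1 and 3 or S-V12 replicates 1, 2 and 3, at 0.74 to 0.92. Hspb9, a gene of the testis, was at background on all 16 arrays. No member of this family was called in E-V12/S-V12.

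**Figure D4:**
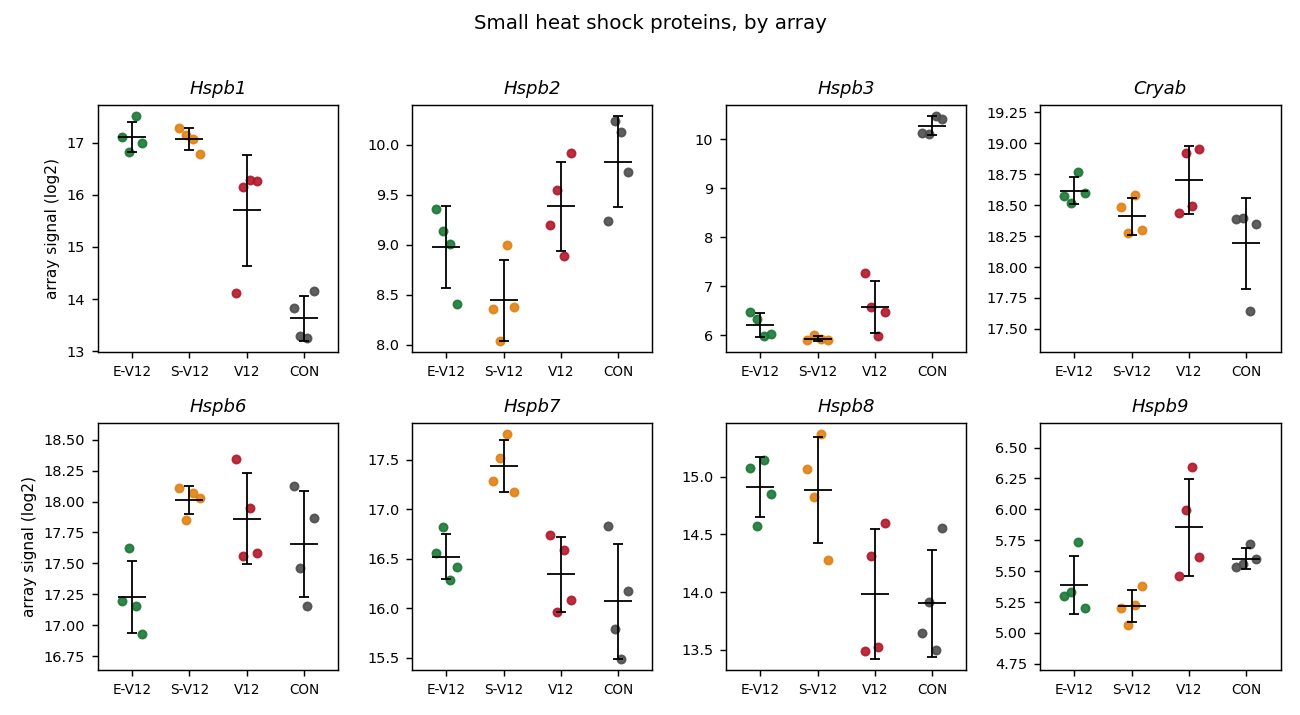
Normalized log2 array signal (vertical axis) of the 8 small heat shock proteins in the E-V12, S-V12, V12 and CON groups (horizontal axis); each point is 1 array and the bars are the mean and SD of 4 arrays. Hspb1 is higher and Hspb3 lower in the ventilated groups than in CON, with V12 replicate 1 of Hspb1 near the CON arrays, and Hspb7 is highest in S-V12.

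In the cytosolic Hsp70 family, Hspa8 (Hsc70), the constitutive Hsp70, rose in V12/CON. Signals of Hspa8 by array were 19.78, 19.66, 19.66 and 19.66 in E-V12, 19.89, 19.72, 19.71 and 19.71 in S-V12, 19.60, 19.63, 19.61 and 19.62 in V12 and 19.16, 18.92, 18.23 and 18.81 in CON. The V12 arrays lay above all CON arrays, with a change of 0.84 ± 0.19 (adjusted p = 0.00251). These signals are near the top of the scale, where the highest cluster of an array read 19.7 to 19.9. Hspa1a, the Hsp70 induced by heat, was dim. Hspa1a read 6.81, 5.79, 5.88 and 8.69 in the E-V12 arrays, 6.35, 6.77, 6.02 and 5.99 in S-V12, 6.56, 6.90, 7.14 and 7.48 in V12 and 6.37, 6.53, 6.75 and 7.54 in CON. On 9 of 16 arrays it was above the highest background row, E-V12 replicate 4 was the highest of all, and 0.22 ± 0.43 in V12/CON was not called (adjusted p = 0.804). Hspa1a and Hspa1b are nearly identical, and which of them the cluster reads cannot be told apart. Hspa1l, a neighbour of both that is best known from the testis, fell by 1.24 ± 0.25 in V12/CON (adjusted p = 0.000972). Hspa1l gave 7.29, 7.41, 6.25 and 7.11 on the E-V12 arrays, 7.56, 7.30, 7.58 and 7.43 on the S-V12 arrays, 7.18, 7.82, 7.05 and 7.94 on the V12 arrays and 8.51, 8.73, 8.60 and 9.10 on the CON arrays. The V12 and CON arrays did not overlap.

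Hspa4 (Apg-2), an Hsp110 protein that exchanges the nucleotide of Hsp70, was not called in V12/CON (0.16 ± 0.18, adjusted p = 0.654) and rose in S-V12/V12. For Hspa4, signals were 14.38, 14.43, 14.41 and 14.47 in E-V12, 14.51, 14.14, 14.43 and 14.19 in S-V12, 13.15, 13.46, 13.15 and 13.59 in V12 and 13.31, 13.47, 12.93 and 13.02 in CON. The S-V12 and V12 arrays did not overlap, and the change was 0.98 ± 0.18 (adjusted p = 0.000698). Its relative Hsph1 (Hsp105) gave -0.44 ± 0.22 for V12/CON and 0.05 ± 0.22 for S-V12/V12, neither called (adjusted p = 0.198 and 0.919). Signals of Hsph1 were 11.68, 11.48, 11.97 and 12.08 in the E-V12 arrays, 11.43, 10.98, 11.68 and 11.28 in the S-V12 arrays, 11.29, 11.68, 10.81 and 11.39 in the V12 arrays and 11.94, 11.97, 11.46 and 11.56 in the CON arrays. All groups overlapped. Hspa2, Hspa4l and Hspa12a were at background on all 16 arrays and Hspa14 on 15. Hspa2 was nevertheless called in E-V12/CON (E-V12 mean 6.22, CON mean 5.24, adjusted p = 0.000946), for which no fold is given.

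Of the cytosolic Hsp90 pair, the inducible Hsp90aa1 rose and the constitutive Hsp90ab1 was not called. Signals of Hsp90aa1 by array were 15.62, 15.48, 16.01 and 15.87 in E-V12, 16.21, 15.41, 15.76 and 15.48 in S-V12, 15.31, 15.55, 15.04 and 15.60 in V12 and 14.05, 14.34, 13.98 and 14.38 in CON. No V12 array overlapped a CON array, and the change was 1.19 ± 0.21 in V12/CON (adjusted p = 0.000251) and 0.35 ± 0.21 in S-V12/V12, not called (adjusted p = 0.307). Hsp90ab1 read 17.33, 17.34, 17.16 and 17.38 in the E-V12 arrays, 17.55, 17.42, 17.65 and 17.35 in S-V12, 16.999, 17.24, 16.93 and 17.14 in V12 and 17.47, 17.001, 16.58 and 17.45 in CON. Here V12 and CON overlapped, at -0.05 ± 0.20 (adjusted p = 0.910).

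Co-chaperones of Hsp90 and Hsp70 outside the naming rule were read from a list of 12, all measured, with 3 higher and 1 lower in V12/CON. S-V12/V12 had 0 higher and 6 lower. Fkbp5, which slows the maturation of the glucocorticoid receptor and is itself induced by it, was higher by 5.41 ± 0.24 in V12/CON (adjusted p = 4.15e-13). Fkbp4, which has the opposite effect on that receptor, fell by 0.83 ± 0.21 (adjusted p = 0.00696), and Ptges3 (p23), which stabilises client-bound Hsp90, was higher by 1.45 ± 0.19 (adjusted p = 5.91e-06). In S-V12/V12 Chordc1, Sugt1, Ppid and St13 were among the 6 lower, at -1.01 ± 0.24, -1.04 ± 0.23, -0.96 ± 0.19 and -0.88 ± 0.16. Sugt1 was also higher in E-V12/S-V12 by 1.09 ± 0.23 (adjusted p = 0.0173), the 1 gene called there of all 37 measured pathway genes outside the rule. In V12/CON these 37 genes gave 7 higher and 5 lower calls, where 14.97% and 16.9% of bright clusters were called, and 5 higher and 10 lower calls in S-V12/V12, where 17.7% and 12.5% were.

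Of the J proteins, V12/CON had 2 of the 24 Dnajc genes higher and 6 lower, with a median change of -0.17. S-V12/V12 had 1 higher and 4 lower, with a median change of -0.20. In S-V12/CON 1 was higher and 9 lower, and the median was -0.53, beside -0.04 over all clusters. Of the bright clusters 16.9% were lower in V12/CON, 12.5% in S-V12/V12 and 23.7% in S-V12/CON. The lower genes include Dnajc5b in S-V12/V12 and Dnajc22 in S-V12/CON, each above background on 0 of 16 arrays. The 12 Dnajb genes had 2 higher in V12/CON, 2 in S-V12/V12, 3 in S-V12/CON and 0 lower in these comparisons. These are 16.7%, 16.7% and 25% of the whole family, dim genes included. Of all clusters 7.68%, 8.05% and 12.0% were called higher, and of the bright clusters 14.97%, 17.7% and 24.5%. The bright share leaves dim clusters out, so it is not a like measure for the whole family. Dnajb3, Dnajb7, Dnajb8 and Dnajb13 were above background on no array and Dnajb14 on 1. The difference between the families was not tested.

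Dnajc27, a Rab-like GTPase with a J domain, fell in V12 and was higher again in S-V12. Dnajc27 gave 10.97, 11.02, 10.13 and 10.97 on the E-V12 arrays, 11.57, 11.03, 11.08 and 10.80 on the S-V12 arrays, 9.82, 9.98, 9.39 and 10.39 on the V12 arrays and 11.65, 11.35, 11.10 and 11.65 on the CON arrays. It changed by -1.54 ± 0.24 in V12/CON (adjusted p = 7.76e-05) and by 1.23 ± 0.24 in S-V12/V12 (adjusted p = 0.00131), and neither pair of groups overlapped. S-V12 differed from CON by -0.32 ± 0.24, not called (adjusted p = 0.408). Dnajc18, a J protein of the ER membrane that faces the cytosol, stayed low in all ventilated groups. For Dnajc18, signals were 10.18, 10.59, 10.16 and 10.42 in E-V12, 10.64, 10.62, 10.43 and 10.73 in S-V12, 10.88, 10.56, 10.23 and 10.35 in V12 and 12.14, 11.52, 11.41 and 11.65 in CON. Its change was -1.17 ± 0.20 in V12/CON (adjusted p = 0.000174). Dnajc28 had the same shape, at -1.23 ± 0.24 in V12/CON (adjusted p = 0.000673), -1.77 ± 0.24 in S-V12/CON and -1.68 ± 0.24 in E-V12/CON. So did Dnaja4, a cytosolic J protein of the first class. Signals of Dnaja4 were 14.31, 14.53, 14.28 and 14.32 in the E-V12 arrays, 14.47, 14.02, 14.25 and 13.91 in the S-V12 arrays, 14.19, 14.41, 14.75 and 14.21 in the V12 arrays and 15.52, 15.56, 15.08 and 15.17 in the CON arrays. The change was -0.94 ± 0.19 in V12/CON (adjusted p = 0.00117).

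Of the other Dnajc genes lower in V12/CON, Dnajc16 changed by -0.81 ± 0.22 (adjusted p = 0.0114), Dnajc30 by -0.80 ± 0.23 (adjusted p = 0.0185) and Dnajc4 by -0.71 ± 0.22 (adjusted p = 0.0308). Dnajc30 lost its call without CON replicate 4 or V12 replicate 3, at -0.75 and -0.65, and Dnajc4 without CON replicate 2 or 3 or V12 replicate 1 or 3, at -0.70 to -0.52.

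Dnajc19 and Dnajc15, J proteins of the motor that pulls proteins through the inner mitochondrial membrane, were not called in V12/CON (0.34 ± 0.25, adjusted p = 0.428 and 0.10 ± 0.21, adjusted p = 0.833) and fell in S-V12/V12. Signals of Dnajc19 by array were 13.88, 13.89, 13.94 and 13.56 in E-V12, 12.75, 12.38, 13.27 and 12.85 in S-V12, 14.62, 14.63, 14.37 and 14.84 in V12 and 13.52, 14.96, 14.54 and 14.07 in CON. No S-V12 array reached a V12 array, and the change was -1.80 ± 0.25 in S-V12/V12 (adjusted p = 3.76e-05). Dnajc15 read 11.53, 11.71, 11.44 and 11.51 in the E-V12 arrays, 11.17, 11.26, 11.44 and 11.26 in S-V12, 12.61, 12.37, 12.14 and 12.82 in V12 and 11.75, 12.34, 12.83 and 12.63 in CON. Dnajc15 changed by -1.20 ± 0.21 in the same comparison (adjusted p = 0.000479), with no overlap.

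Dnajc21, which acts in ribosome assembly, showed opposite calls in the 2 comparisons that share the V12 arrays. Dnajc21 gave 13.22, 13.29, 13.26 and 13.02 on the E-V12 arrays, 12.80, 12.71, 12.88 and 12.30 on the S-V12 arrays, 13.55, 13.85, 13.75 and 13.88 on the V12 arrays and 13.16, 13.63, 12.99 and 12.99 on the CON arrays. It fell by 1.08 ± 0.19 in S-V12/V12 (adjusted p = 0.000452). Its change of 0.56 ± 0.19 in V12/CON (adjusted p = 0.0461) lost its call without any of 13 arrays, all but CON replicate 2, V12 replicate 1 and S-V12 replicate 4, at 0.50 to 0.57. Dnajb5, a cytosolic J protein, was not called in V12/CON (0.40 ± 0.24, adjusted p = 0.296) and rose in S-V12/V12. For Dnajb5, signals were 14.75, 14.997, 14.44 and 14.31 in E-V12, 15.49, 15.60, 15.89 and 15.14 in S-V12, 14.85, 14.14, 14.02 and 14.12 in V12 and 13.93, 13.86, 13.42 and 14.31 in CON. The S-V12 arrays lay above all others, with 1.25 ± 0.24 in S-V12/V12 (adjusted p = 0.000821). Dnajb6, whose mutation causes a limb-girdle muscular dystrophy in humans, changed by 0.06 ± 0.18, 0.14 ± 0.18 and -0.15 ± 0.18 in V12/CON, S-V12/V12 and E-V12/S-V12, none called (adjusted p = 0.881, 0.681 and 0.752).

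Bag proteins bind Hsp70 through the BAG domain and release its client. Bag3, which joins Hsp70 and Hspb8 at the Z-disc to remove damaged filamin, rose in both V12/CON and S-V12/V12. Signals of Bag3 were 13.42, 14.09, 13.56 and 13.75 in the E-V12 arrays, 14.42, 14.92, 14.12 and 14.66 in the S-V12 arrays, 13.77, 13.63, 13.48 and 13.47 in the V12 arrays and 13.17, 11.79, 11.78 and 12.52 in the CON arrays. The change was 1.27 ± 0.26 in V12/CON (adjusted p = 0.00134) and 0.95 ± 0.26 in S-V12/V12 (adjusted p = 0.0162), without overlap in either, and 2.22 ± 0.26 in S-V12/CON (4.65-fold). The S-V12/V12 call was lost without S-V12 replicate 2, at 0.82 (adjusted p = 0.0631). Bag2, which inhibits the ubiquitin ligase CHIP, rose in V12/CON by 1.22 ± 0.27 (adjusted p = 0.00220). Signals of Bag2 by array were 11.13, 10.89, 10.60 and 10.87 in E-V12, 10.21, 9.93, 9.54 and 9.35 in S-V12, 9.71, 10.13, 9.90 and 10.63 in V12 and 8.01, 9.09, 9.31 and 9.07 in CON. The E-V12 arrays were the highest, apart from an overlap with V12 replicate 4. Bag5, which carries several BAG domains, rose in V12 and was lower in S-V12. Bag5 read 10.48, 10.77, 10.59 and 10.46 in the E-V12 arrays, 9.72, 9.67, 9.68 and 9.75 in S-V12, 10.85, 10.88, 10.61 and 10.23 in V12 and 9.69, 10.36, 10.02 and 9.79 in CON. Its change was 0.68 ± 0.19 in V12/CON (adjusted p = 0.0159) and -0.94 ± 0.19 in S-V12/V12 (adjusted p = 0.00165). The V12/CON call was lost without CON replicate 1 or 4 or V12 replicate 2, at 0.59 to 0.62. Bag6, which guides tail-anchored membrane proteins, was not called in V12/CON (-0.22 ± 0.28, adjusted p = 0.689) and rose by 0.998 ± 0.28 in S-V12/V12 (adjusted p = 0.0183), a call lost without V12 replicate 3 or S-V12 replicate 1, at 0.89 and 0.91. Bag6 gave 13.02, 12.63, 12.24 and 12.54 on the E-V12 arrays, 14.01, 13.75, 13.63 and 13.65 on the S-V12 arrays, 13.12, 12.67, 12.45 and 12.81 on the V12 arrays and 13.77, 12.17, 12.46 and 13.52 on the CON arrays. S-V12 lay above E-V12 and V12, and overlapped CON.

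Genes of the Cct family build the ring that folds actin and tubulin. Of the 9 members taken by the Cct prefix, 0 were called in V12/CON, and their changes ran from -0.36 to 0.52. Cct2 was the highest of them in V12/CON at 0.52 ± 0.19 (adjusted p = 0.0622). For Cct2, signals were 13.22, 13.22, 13.65 and 13.57 in E-V12, 13.33, 13.28, 13.24 and 13.26 in S-V12, 13.01, 13.29, 13.07 and 13.28 in V12 and 12.20, 12.75, 12.60 and 12.999 in CON. The V12 arrays lay just above the CON arrays. In S-V12/V12 Cct3 rose. Signals of Cct3 were 13.32, 13.10, 13.35 and 13.39 in the E-V12 arrays, 13.39, 12.89, 13.36 and 12.98 in the S-V12 arrays, 11.46, 12.13, 11.55 and 12.58 in the V12 arrays and 11.80, 12.23, 11.77 and 12.02 in the CON arrays. The change was 1.23 ± 0.22 (adjusted p = 0.000643), while Cct7 fell by 0.52 ± 0.16 (adjusted p = 0.0283), a call lost without V12 replicate 1 or 2 or S-V12 replicate 1 or 3, at -0.51 to -0.50. Cct6b and Cct8l2 were at background on all 16 arrays. Tcp1, the subunit of the same ring that does not carry the Cct prefix, fell by 0.77 ± 0.19 in V12/CON (adjusted p = 0.00561) and rose by 0.71 ± 0.19 in S-V12/V12 (adjusted p = 0.0114). Of the prefoldins, which deliver clients to the ring, Pfdn2 was higher and Pfdn6 lower in V12/CON, at 0.65 ± 0.17 and -0.70 ± 0.21.

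In mitochondria, Hspd1 (Hsp60) was not called in any of the comparisons, and its lid Hspe1 (Hsp10) fell in S-V12/V12. Signals of Hspd1 by array were 15.25, 14.92, 15.28 and 15.48 in E-V12, 15.32, 14.98, 15.47 and 14.88 in S-V12, 15.60, 15.50, 15.26 and 15.36 in V12 and 15.55, 15.80, 15.39 and 15.42 in CON. The change was -0.11 ± 0.19 in V12/CON (adjusted p = 0.779). Hspe1 read 13.92, 14.07, 14.34 and 14.14 in the E-V12 arrays, 13.74, 13.52, 13.78 and 13.36 in S-V12, 14.10, 14.77, 14.30 and 14.44 in V12 and 13.54, 14.48, 14.08 and 14.19 in CON. Hspe1 changed by 0.33 ± 0.21 in V12/CON, not called (adjusted p = 0.346), and by -0.80 ± 0.21 in S-V12/V12 (adjusted p = 0.0112), where Hspd1 gave -0.27 ± 0.19 (adjusted p = 0.398). Hspa9 (mortalin), the Hsp70 of the matrix, gave 0.03 ± 0.18 for V12/CON and 0.42 ± 0.18 for S-V12/V12, neither called (adjusted p = 0.932 and 0.126). Outside the rule, Trap1, the mitochondrial Hsp90, fell by 0.86 ± 0.18 in V12/CON (adjusted p = 0.00115) and rose by 0.72 ± 0.18 in S-V12/V12 (adjusted p = 0.00657). Smyd1, a methyltransferase that works with the myosin chaperones, fell by 1.94 ± 0.24 in V12/CON (adjusted p = 3.27e-06) and rose by 0.84 ± 0.24 in S-V12/V12 (adjusted p = 0.0194).

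Stimulation of the diaphragm was compared with the sham operation in E-V12/S-V12. Bag2, Dnajc19 and Bag5 were higher, by 1.12 ± 0.27 (adjusted p = 0.0284), 1.004 ± 0.25 (0.0346) and 0.87 ± 0.19 (0.0203). Bag6 and Dnajb5 were lower, at -1.15 ± 0.28 (adjusted p = 0.0314) and -0.91 ± 0.24 (0.0407). The E-V12 and S-V12 arrays of these 5 genes did not overlap. This adds no support to the calls, since the genes were picked by a small adjusted p from the same arrays. Of the 5, the 4 called in S-V12/V12 (Dnajc19, Bag5, Bag6 and Dnajb5) had moved there in the other direction, by -1.80 ± 0.25, -0.94 ± 0.19, 0.998 ± 0.28 and 1.25 ± 0.24; both comparisons use the same S-V12 arrays, with opposite sign. The call of Bag2 was lost without S-V12 replicate 2, 3 or 4 or any E-V12 array (0.98 to 1.21), that of Dnajc19 without S-V12 replicate 1, 2 or 4 or E-V12 replicate 1, 2 or 3 (0.86 to 1.02), and that of Bag5 without S-V12 replicate 2 or 4 or E-V12 replicate 2 or 3 (0.80 to 0.89). Bag6 lost its call without any S-V12 array or E-V12 replicate 2, 3 or 4 (-1.20 to -1.03), and Dnajb5 without any S-V12 array, E-V12 replicate 1, 3 or 4 or V12 replicate 2 (-1.04 to -0.79). Among the bright clusters 2.68% were higher and 3.53% lower here, beside 3 and 2 of the 64 bright members. All 9 Cct genes, of which Cct6b and Cct8l2 were above background on no array, had a change above 0, between 0.06 and 0.63, with 0 called, and 53 of all 82 members had one above 0.

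More members were called in E-V12/CON and S-V12/CON than in V12/CON, and so were more of all clusters. All 3 comparisons use the same CON arrays. In S-V12/CON 19 members were higher and 15 lower, against 12.0% and 12.8% of all clusters, and in E-V12/CON 21 were higher and 12 lower, against 10.9% and 12.6%. Among the bright clusters 24.5% were higher and 23.7% lower in S-V12/CON, where 19 and 14 of the 64 bright members were called, and 21.2% and 23.7% in E-V12/CON, where 20 and 12 were; V12/CON had 14.97% and 16.9%, with 12 and 9 of the 64. In these comparisons 6 of 8 macrophage and monocyte markers were higher and 0 lower in each, and the other cell types moved in both directions. E-V12/CON had 2 of 4 neutrophil markers higher, 4 of 7 endothelial and 3 of 6 smooth muscle and pericyte markers lower, and, of 5 fibroblast markers, Dcn and Pdgfra higher and Col1a1, Col1a2 and Lum lower. S-V12/CON had Dcn and Pdgfra higher and Lum lower, and 1 endothelial marker higher and 1 lower. In the same comparison 2 smooth muscle and pericyte markers and the muscle fibre gene Tnnt1 were lower. So was 1 of 3 red blood cell markers, but all 3 were above background on no array. The part of all these cell types in the changes of the members was not tested. The highest change was that of Hspb1 in both, at 3.43 ± 0.35 and 3.48 ± 0.35, followed by Hspa5 at 3.18 ± 0.20 and 3.06 ± 0.20 and Dnajb9 at 2.53 ± 0.20 and 2.74 ± 0.20. Hsp90aa1 was higher by 1.53 ± 0.21 in S-V12/CON and 1.56 ± 0.21 in E-V12/CON. Of the Cct genes, Cct2, Cct3, Cct5 and Cct6a were higher in E-V12/CON, at 0.78 ± 0.19, 1.34 ± 0.22, 0.78 ± 0.23 and 0.74 ± 0.23; the Cct5 call was lost without CON replicate 1, at 0.57, and that of Cct6a without CON replicate 3 or E-V12 replicate 1, at 0.66 and 0.62. Across the 5 comparisons 36 of the 82 members were never called, 1 of them Hsp90ab1, and 37 were called in V12/CON, S-V12/V12 or E-V12/S-V12, as the heat map of these 37 shows.

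**Figure D5:**
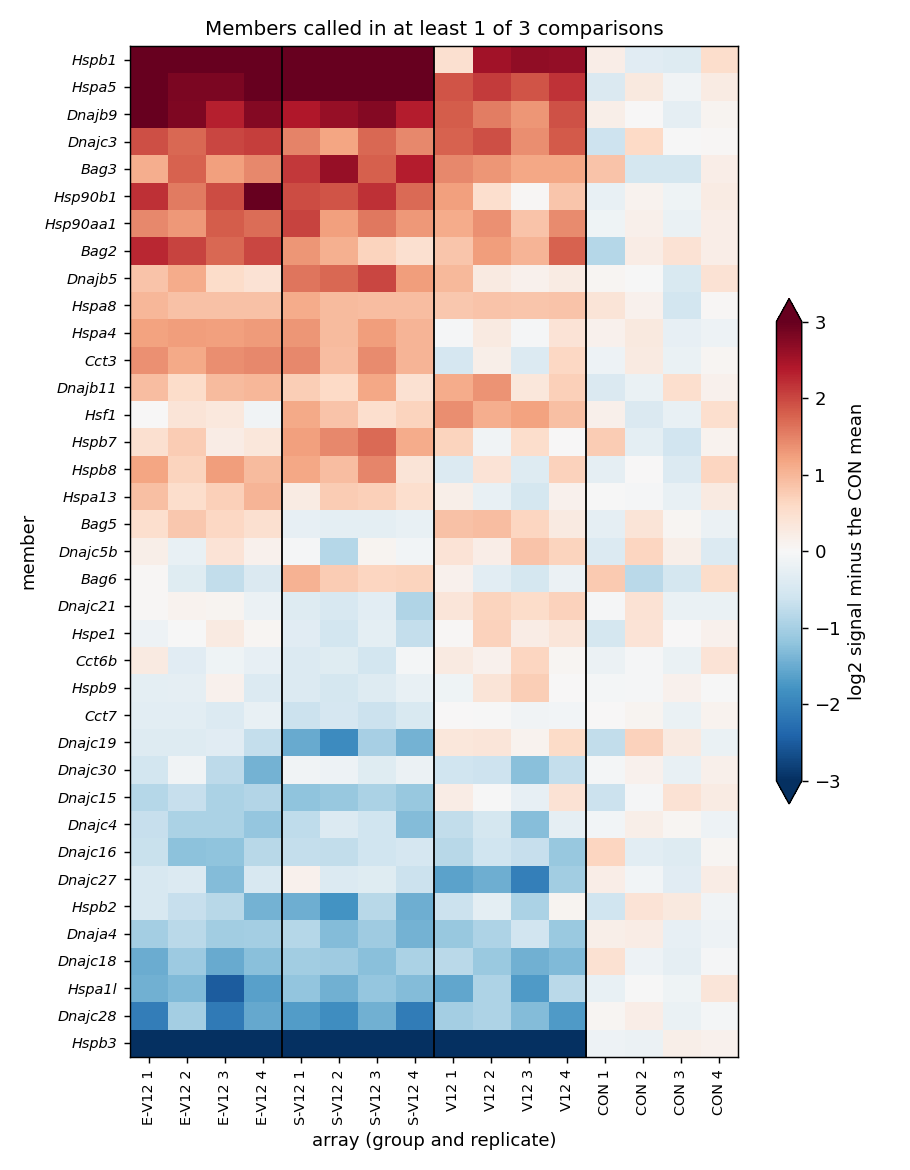
Log2 signal minus the CON mean (colour, limited at 3 either way) of the 37 members called in V12/CON, S-V12/V12 or E-V12/S-V12 (vertical axis) on the 16 arrays (horizontal axis, groups E-V12, S-V12, V12 and CON). Members are ordered by their mean difference from CON; Hspb1, Hspa5 and Dnajb9 head the map, Hspb3 closes it, and V12 replicate 1 stands apart from its group for Hspb1.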

How the data were processed

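Diaphragm RNA of 16 rats was hybridised to Clariom S arrays. The values are log2 signals that the authors deposited for each transcript cluster, normalized between arrays by RMA in the Transcriptome Analysis Console per the labels, and these values were not normalized again. For the clusters' genome build, the sources used here give none. Of 24834 entries 1646 controls were left out. A platform annotation, which can be old, gave 1 symbol to 15049 clusters and none to 8139. Groups follow the labels. limma 3.58.1 in R 4.3.3 fitted the 4 group means without covariates, with two-sided p adjusted by Benjamini-Hochberg over 23188 clusters. The methods name a t-test with an unadjusted p and a 2-fold limit, which was run as an alternative. With 4 arrays per group, their number limits the precision, and replicates are separate rats.

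The members, gene lists and motifs were chosen with earlier results of these data known. Values of every array are given for 27 members: 13 measured of 15 well-known chaperones listed whatever their values, up to 3 called members of smallest adjusted p per family in V12/CON, and the 4 of smallest adjusted p in each of S-V12/V12 and E-V12/S-V12. Hsp90b1, Hspa4, Hspb7, Cct3 and others were added after their values were seen. Same-numbered arrays of different groups did not deviate together (r = -0.0948 to 0.111 over 24 pairs, 1 of them over 0.1), so the numbers pair nothing. Alternatives covered the call threshold, test, arrays fitted, array weights, variance model, a filter on the dimmest 25% of clusters, normalization, replicate block, clusters tested and each array left out. The fitting code was tested on simulated data.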

Additional observations from a re-analysis of the deposited data

Results flagged for a closer look

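Of 108 groups of 4 arrays over the 27 members with a value given for every array, 9 held an array far from the other 3 of its group, where about 5% would by chance. Hspb1 read 14.1 in V12 replicate 1, while the other V12 arrays lay at 16.14 to 16.28. Cryab read 17.6 in CON replicate 3, with the others at 18.35 to 18.40. Dnajc27 read 10.1 in E-V12 replicate 3, with the others at 10.97 to 11.02. Dnajb11 and Dnaja4 read 9.14 and 14.5 in E-V12 replicate 2, beside 9.51 to 9.58 and 14.28 to 14.32. Dnajc19 read 13.6 in E-V12 replicate 4, beside 13.88 to 13.94. Hspa8 read 19.8 in E-V12 replicate 1 and 19.9 in S-V12 replicate 1, where the other arrays lay at 19.66 and at 19.71 to 19.72. These signals lie at the top of the scale, where 3 E-V12 arrays share 1 value, so the gap says nothing about those arrays. Hspb3 read 6.01 in S-V12 replicate 2, beside 5.90 to 5.91, all of them not above background.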

How the results depend on the processing

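Under 28 other settings no called change of a named member changed sign. Settings of threshold, test or variance model, and arrays of other groups left out, do not alter a log2 change. They could not reverse it. Of 280 counts under the 28 settings 51 moved by over 1.5 times. Called changes of named members, each counted once per setting, gave 1848 readings, and in 159 of these the call was lost. Calls that held under every setting but those with a 2-fold limit numbered 11 of 21 in V12/CON, 12 of 23 in S-V12/V12, 0 of 5 in E-V12/S-V12, 22 of 34 in S-V12/CON and 19 of 33 in E-V12/CON. A 2-fold limit gave the same counts with the adjusted limma p, the unadjusted limma p and the methods' t-test: 5 lower in V12/CON, 7 higher and 3 lower in S-V12/V12, 1 lower in E-V12/S-V12, 11 higher and 8 lower in S-V12/CON, and 11 higher and 4 lower in E-V12/CON. The methods' t-test after Benjamini-Hochberg adjustment gave 5 higher in V12/CON, without Hspb1, Bag2, Bag3, Bag5, Hspa8, Dnajb11 and Dnajc21. It gave 6 lower in S-V12/V12, 1 lower in E-V12/S-V12 and 12 higher in S-V12/CON. In E-V12/S-V12, limma on the arrays of both groups alone gave 5 higher and 5 lower, array weights 5 lower, and trended, robust variances 4 lower. Centring arrays on their median gave 6 lower in S-V12/V12, without Dnajc5b, Cct7, Hspb9 and Cct6b. The causes were not tested. With single arrays left out, V12/CON had 9 to 14 higher and 7 to 9 lower, S-V12/V12 10 to 14 and 5 to 11, E-V12/S-V12 0 to 3 and 0 to 5, S-V12/CON 15 to 19 and 11 to 19, and E-V12/CON 18 to 23 and 10 to 14. A replicate block, whose numbers pair nothing here, left V12/CON with 12 higher and 9 lower, S-V12/V12 with 13 and 9, E-V12/S-V12 with 3 and 2, S-V12/CON with 18 and 14, and E-V12/CON with 21 and 13. The filter on dim clusters left out 9 members, which have no value there. Dnajc5b, Hspb9 and Cct6b were not above background on any array, so their calls rest on signals the arrays hardly measure.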
